A study of Mus musculus with 6 samples.

Results

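The 37 genes described here form the core machinery of apoptosis and necroptosis: the Bcl2 family, the caspases with the apoptosome, the inhibitor of apoptosis proteins (IAPs) with their antagonists, the death receptor pathway and the necroptosis pair Ripk3 and Mlkl. They were chosen by name, and every probe set that carried the symbol of 1 such gene was taken, which gave 85 of the 45101 probe sets on the array for 33 of the 37 genes. Bcl2a1d and Bnip3l were represented here by probe sets that carry several symbols, and Bax and Ripk1 by none under their own symbol, so these 4 genes were not analysed here. Tests were run on probe sets whose mean log2 signal over the 6 arrays lay above the 40th percentile of all probe sets, a signal of 47.5. This left 68 probe sets of 32 genes, and the BH3-only gene Bik was the 1 gene with probe sets of which none was tested. Probe sets of 1 gene read the same gene and are not replicates of each other.

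The series compared peritoneal macrophages of mice with a conditional (floxed) deletion of the transcription factor gene Gata6, labelled Gata6-KO, with those of wild type mice, labelled Gata6-WT. All mice were 7 weeks old. Both genotypes were represented by 3 arrays, each hybridised with total RNA from a pool of 2 to 3 mice, after lavage of the peritoneal cavity and sorting of resident macrophages as CD11b-high and MHCII-low or negative cells. The sources used here do not give the Cre line, the cells in which it acts or the deleted part of Gata6. The labels call the pools biological replicates.

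Apoptosis proceeds along an intrinsic and an extrinsic route. In the intrinsic route BH3-only proteins such as NOXA (Pmaip1), BIM (Bcl2l11) and PUMA (Bbc3) bind and neutralise anti-apoptotic proteins. The anti-apoptotic proteins include BCL2, BCL-XL (Bcl2l1) and MCL1. BAX and BAK then permeabilise mitochondria, cytochrome c leaves them and joins APAF1, and caspase-9 is activated. In the extrinsic route a death receptor such as FAS recruits FADD and caspase-8, and c-FLIP, the product of Cflar, is a catalytically inactive relative of caspase-8 that limits its activation. IAPs act as ubiquitin ligases or caspase inhibitors. In macrophages c-FLIP and the IAPs can limit cell death during inflammatory signalling, when RIPK3 and MLKL can otherwise drive necroptosis.

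Gata6 was lower in Gata6-KO at 2 of its 3 probe sets. The signal of 1443081_at was 180 ± 6.47 in Gata6-KO and 423 ± 76.6 in Gata6-WT (SD, n = 3), that of 1425464_at was 3497 ± 828 and 6372 ± 938, and that of 1425463_at was 1758 ± 399 and 1775 ± 443 (limma adjusted p = 0.0043, 0.011 and 0.98). Where these probe sets lie relative to the deletion is not known here, so the third checks nothing about the labels. The arrays numbered 1 stood apart from the others of both genotypes in sex-linked expression: Xist was at 102 and 113 there and between 11158 and 13749 in the other 4 arrays, and the Y-linked gene Eif2s3y was at 3494 and 3674 against at most 15.3. Calls below are therefore also given without the arrays numbered 1. The 3' to 5' signal ratio of the Gapdh control probe sets was 0.697 to 0.722 in Gata6-KO and 0.742 to 0.778 in Gata6-WT, and that of Actb reached 1.431 in Gata6-KO and began at 1.432 in Gata6-WT; the part of this shift in the results was not tested. Of 7 macrophage markers, 3 were lower (Adgre1, Fcgr1 and Cd68) and 1 was higher (Mertk) in Gata6-KO, with Lyz2, Csf1r and Itgam measured in every array and a summed signal of 165065 to 178218 against 178188 to 216817. Of 31 measured markers of 8 other cell types 25 were at or below the filter. Of the 6 tested, S100a8 and Cd209a were lower and 0 were higher. The mast cell gene Cpa3 was at log2 -0.78 without overlap (limma adjusted p = 0.051). The summed neutrophil list was at 384 to 708 against 899 to 1506. The summed dendritic cell list was at 255 to 532 against 483 to 1276. These lower sums came from S100a8 and Cd209a, as no other measured member of either list was lower in mean. The dendritic cell marker Zbtb46 was at log2 0.24 (limma adjusted p = 0.78). At or below the filter, Xcr1 was at 60.4, 64.98 and 53.8 in Gata6-KO against 4.41, 50.04 and 34.4. Flt3 and the neutrophil markers S100a9, Cxcr2 and Camp were also higher in mean, and S100a9 and Camp reached at most 52.1. The part of these cell types in the results was not tested, and in sorted bulk samples fewer cells of a type and less RNA per cell cannot be told apart.

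Most of the apoptosis probe sets did not pass the test between the genotypes. At an adjusted p under 0.05, 4 of the 68 rose in Gata6-KO and 4 fell, and these belonged to 7 genes: Casp8, Birc6 and Mcl1 were higher and Cflar, Pmaip1, Casp2 and Birc2 lower. This is 11.8% of the members' probe sets, where 10.8% of all 27022 tested probe sets passed (5.12% higher and 5.67% lower), so the share is near the background. With 1 probe set a gene, the tested one with the highest mean, 2 of 32 genes were higher (Casp8, Birc6) and 3 lower (Pmaip1, Casp2, Birc2), or 15.6%, against 13.1% of all 12511 genes (5.61% higher and 7.46% lower). Groups that did not overlap were found in 29.4% of the members' probe sets and in 31% of all probe sets. A change of at least 2-fold was found in 2 of the 68, the probe sets of Cflar and Pmaip1, where 4.65% of all probe sets passed both criteria. At 1 probe set a gene, 1 of the 32 genes (Pmaip1) passed both, beside 5.52% of all genes. The median log2 difference of the 32 genes was -0.11 and that of all genes -0.04. With the mean of each gene's probe sets in place of 1 probe set it was 0.039. Without Gata6-KO replicate 1, 2 or 3 the count of higher probe sets was 2, and without Gata6-WT replicate 2 that of lower ones was 2. For 50 of the 68 probe sets the 95% interval of the difference lay within 2-fold in either direction, or 73.5%, beside 64.7% of all probe sets. The test was limma's moderated test with Benjamini-Hochberg adjustment over all probe sets on log2(signal + 16), a scale that understates the change of low signals.

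**Figure D1:**
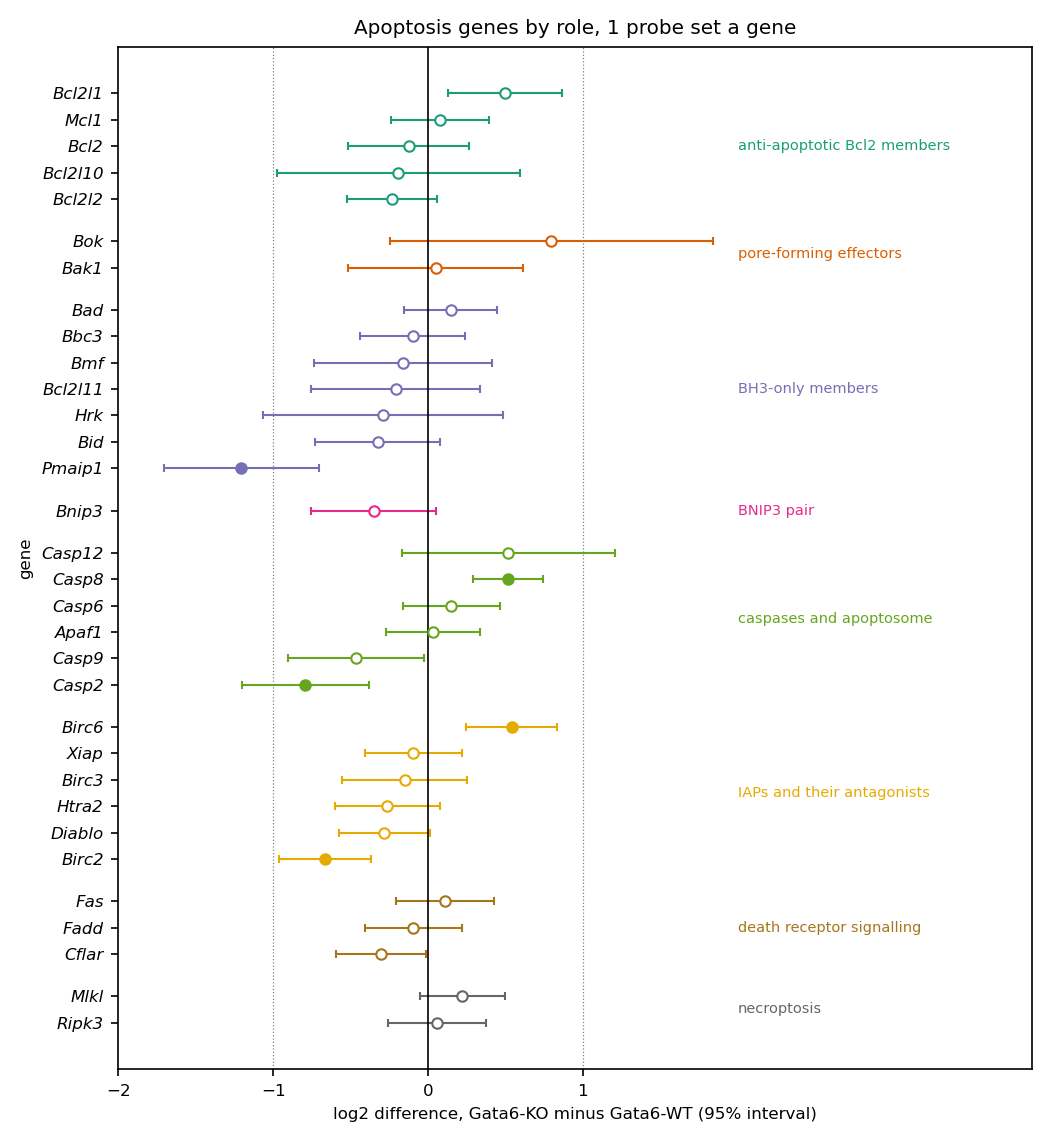
Log2 difference between Gata6-KO and Gata6-WT (points, with 95% interval) for the 32 tested apoptosis genes, 1 probe set a gene, grouped by role. Filled points passed an adjusted p of 0.05, dotted lines mark 2-fold; the filled points are Casp8 and Birc6 on the right and Pmaip1, Casp2 and Birc2 on the left.

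**Figure D2:**
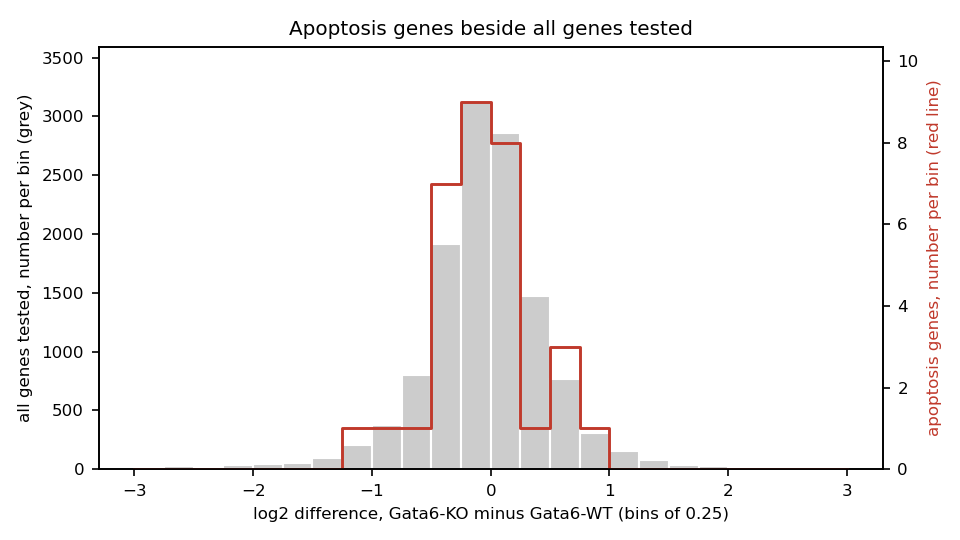
Number of genes per bin of log2 difference (width 0.25) for all 12511 genes tested (grey, left axis) and for the 32 apoptosis genes (red line, right axis). The 59 genes beyond a log2 difference of 3 are not drawn, and the apoptosis genes lay between -1.21 and 0.80.

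In each of the 8 probe sets past the threshold the 3 Gata6-KO arrays lay entirely on 1 side of the 3 Gata6-WT arrays. The 8 were picked by their p from these same arrays, so the separation adds no evidence of its own. The exact two-sided permutation test gave p = 0.1 for each of them, the smallest it can give with 3 against 3 arrays. Without the arrays numbered 1, in a fit of 2 against 2 arrays, Mcl1 1416881_at (limma adjusted p = 0.033) and Cflar 1449317_at (0.014) still passed. In the same fit the other 6 had adjusted p values of 0.064 to 0.18 with the same direction, and 5.98% of all probe sets passed.

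**Figure D3:**
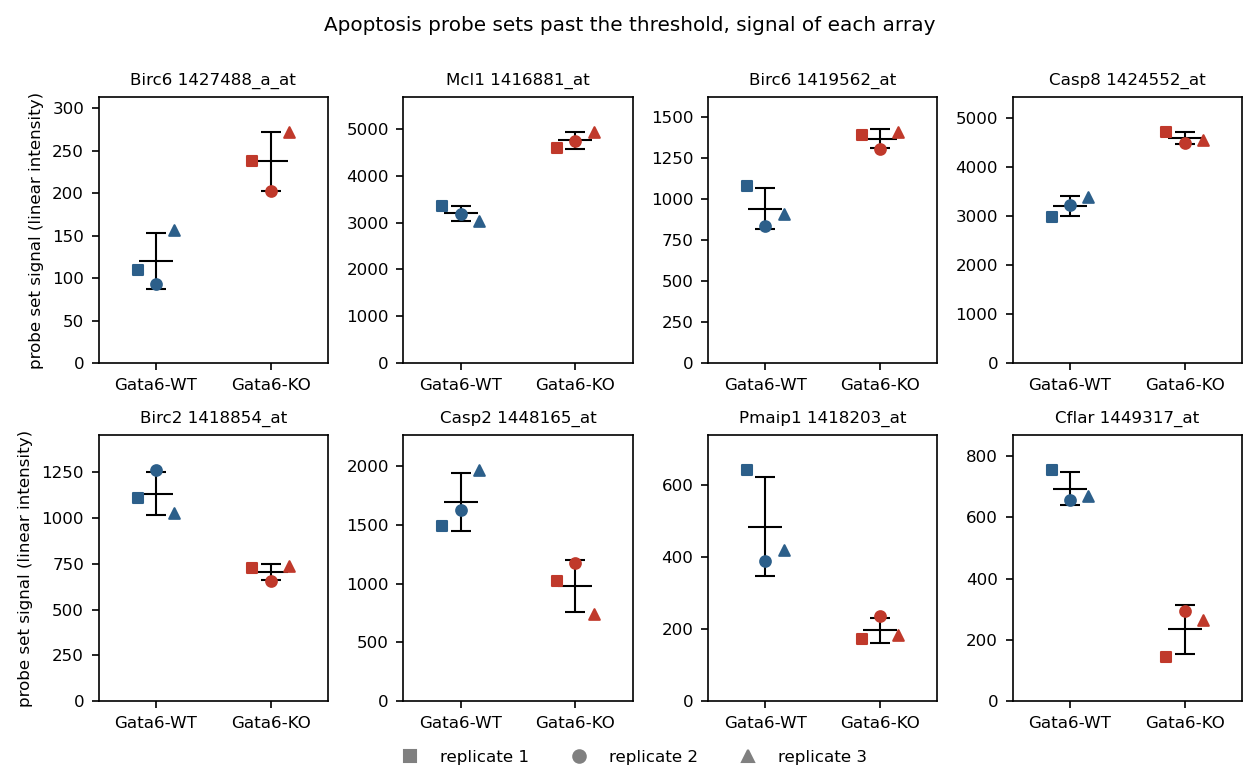
Probe set signal (linear intensity, axes from 0) in each of the 3 Gata6-WT (blue) and 3 Gata6-KO (red) arrays for the 8 probe sets past the threshold, with mean and SD (black) and 1 marker shape per replicate number. The genotypes do not overlap in any panel; the top row is higher and the bottom row lower in Gata6-KO.

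Sequences upstream of 4 of the changed genes are shown: Casp8 and Cflar, whose products act on the same step, and the IAP genes Birc6 and Birc2. In both pairs the probe sets past the threshold had opposite signs, although 3 of 5 tested Birc6 probe sets were below 0. Each is the 250 bases before the first listed transcript start, 5′ to 3′ on the gene's strand, from RefSeq on GRCm38.p6, at chr1:58802252-58802501 (Casp8, plus strand), chr1:58711241-58711490 (Cflar, plus strand), chr17:74528045-74528294 (Birc6, plus strand) and chr9:7837058-7837307 (Birc2, minus strand). Capitals mark matches on either strand to a GATA motif (GATAA or GATAG after an A or a T), a GC box (GGGCGG) or a TATA box (TATAAA).
Casp8: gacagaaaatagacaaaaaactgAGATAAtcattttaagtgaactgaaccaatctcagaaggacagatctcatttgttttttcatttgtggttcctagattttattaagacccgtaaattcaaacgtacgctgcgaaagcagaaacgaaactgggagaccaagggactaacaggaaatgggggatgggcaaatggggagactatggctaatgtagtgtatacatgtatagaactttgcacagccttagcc
Cflar: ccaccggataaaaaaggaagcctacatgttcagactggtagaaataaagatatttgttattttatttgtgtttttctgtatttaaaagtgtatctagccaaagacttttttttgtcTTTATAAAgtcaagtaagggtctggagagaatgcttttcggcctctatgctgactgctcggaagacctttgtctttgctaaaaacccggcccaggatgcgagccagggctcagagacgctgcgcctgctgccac
Birc6: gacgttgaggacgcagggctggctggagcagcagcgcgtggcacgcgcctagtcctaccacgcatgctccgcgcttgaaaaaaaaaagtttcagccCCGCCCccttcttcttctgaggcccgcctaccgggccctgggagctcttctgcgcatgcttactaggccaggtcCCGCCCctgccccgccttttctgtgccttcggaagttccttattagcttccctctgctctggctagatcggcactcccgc
Birc2: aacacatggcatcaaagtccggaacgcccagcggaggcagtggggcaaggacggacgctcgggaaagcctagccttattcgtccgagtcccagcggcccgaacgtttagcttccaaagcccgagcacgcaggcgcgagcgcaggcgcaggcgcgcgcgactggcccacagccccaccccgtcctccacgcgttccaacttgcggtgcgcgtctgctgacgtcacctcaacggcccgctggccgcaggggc

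Casp8 held 1 GATA match, whose first base lay at -227 from the start, and the other 3 windows held none. Cflar held a TATA box match on both strands at 1 place, Birc6 held 2 GC boxes, and Birc2 had no match in this window. Among all 32851 promoter entries of the same length 26.5% held a GATA match, 32.7% a GC box and 12.4% a TATA box. Of 44 windows of 32 members with an entry (chromosome 18, which carries Pmaip1, was left out), 10 or 22.7% held a GATA match, so such matches were no more frequent here than in all promoters. A match is a description of these letters. Cflar and Casp8 lie on the same strand of chromosome 1 with starts 91.0 kb apart, and Birc2 and Birc3 are neighbours on chromosome 9 with starts 36.1 kb apart.

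Among the anti-apoptotic Bcl2 members, Mcl1 rose at 1 of its 6 tested probe sets, and Bcl2, Bcl2l1 (BCL-XL), Bcl2l2 (BCL-W) and Bcl2l10 did not pass at any. At Mcl1 1416881_at the signal was 4587, 4735 and 4935 in Gata6-KO replicates 1, 2 and 3 and 3360, 3178 and 3040 in Gata6-WT replicates 1, 2 and 3. All Gata6-KO arrays were above all Gata6-WT arrays, and the difference was 1.49-fold (log2 0.57 ± 0.10 SE, limma adjusted p = 0.0060). A second probe set, 1448503_at, also separated the groups, at 21277 to 22518 against 16713 to 18729 (log2 0.30 ± 0.10), but did not pass (limma adjusted p = 0.084). The other 4 Mcl1 probe sets had log2 differences of 0.02 to 0.21 with overlapping groups, and in all 4 Gata6-WT replicate 3 was the highest wild type array and Gata6-KO replicate 3 the lowest knockout array. Of these 4, 3 carry the suffix _x_at, which the array maker gives to probe sets with probes shared by other sequences. The rise of Mcl1 was thus seen at part of its probe sets, and the probe set with the highest signal, 1437527_x_at, had a log2 difference of 0.08 with a 95% interval of -0.24 to 0.40.

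Bcl2l1 came close to the threshold. Its signal at 1420888_at was 903, 965 and 1206 in Gata6-KO and 615, 711 and 842 in Gata6-WT, groups that do not overlap, with a log2 difference of 0.50 ± 0.16 and a 95% interval of 0.13 to 0.86 (limma adjusted p = 0.090). With the replicate number as a block it passed (limma adjusted p = 0.036), but in no other variation of the fit. The limma adjusted p was 0.22 without the arrays numbered 1 and 0.25 without Gata6-KO replicate 3. The 5 probe sets of Bcl2, the founding anti-apoptotic member, had log2 differences of -0.28 to 0.23. At the Bcl2 probe set with the highest signal, 1457687_at, Gata6-KO had 438 ± 57.7 and Gata6-WT 481 ± 84.5, and the 95% interval of -0.52 to 0.27 excludes a 2-fold change. At lower signal, the intervals of 1440770_at (-1.08 to 0.55) and 1443837_x_at (-1.39 to 0.89) do not. Bcl2l2 had 631 ± 52.4 against 743 ± 16.8 at 1423572_at, with all 3 Gata6-KO arrays below the Gata6-WT arrays (log2 -0.23 ± 0.13, limma adjusted p = 0.30). Bcl2l10 was measured near the filter, at 49.2 ± 16.8 against 57.3 ± 8.71.

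**Figure D4:**
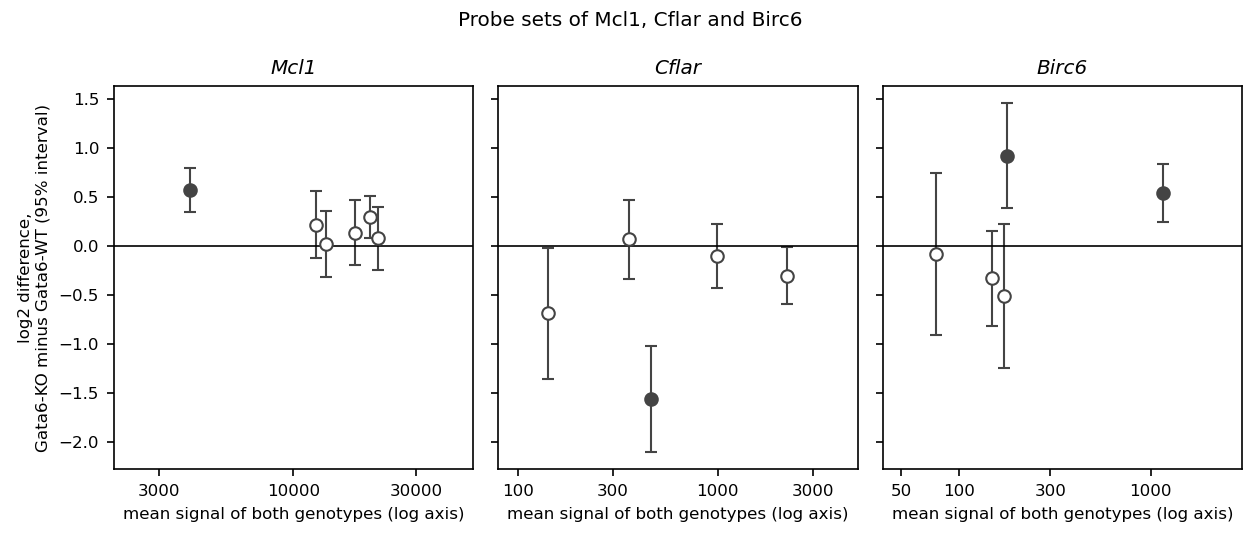
Log2 difference between Gata6-KO and Gata6-WT (points, with 95% interval) against the mean signal of both genotypes (log axis) for each tested probe set of Mcl1, Cflar and Birc6. Filled points passed an adjusted p of 0.05; 1 of 6, 1 of 5 and 2 of 5 probe sets of these genes did.

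The pore-forming effectors Bak1 and Bok did not pass. Bak1 had 487 ± 161 in Gata6-KO and 465 ± 114 in Gata6-WT at 1418991_at (log2 0.05, 95% interval -0.52 to 0.62). Bok had 163, 150.2 and 120 in Gata6-KO against 23.5, 117 and 131 in Gata6-WT, so that Gata6-WT replicate 1 alone was far below the rest (log2 0.80 ± 0.46, limma adjusted p = 0.33).

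Among BH3-only genes, which encode the sensors that trigger the intrinsic route, Pmaip1 fell and the 6 other tested genes did not pass. Pmaip1 encodes NOXA, a BH3-only protein that binds MCL1. Its signal was 172, 237 and 184 in Gata6-KO and 643, 391 and 420 in Gata6-WT. Relative to the wild type mean the Gata6-KO arrays were at 35.5% to 48.9%, and the difference was 2.31-fold (log2 -1.21 ± 0.22, limma adjusted p = 0.0083). It was -1.81 between the arrays numbered 1, where Gata6-WT replicate 1 was the highest array of all, and -0.91 in the other 4 arrays (limma adjusted p = 0.064 there; interaction adjusted p = 1, unadjusted 0.054). With any 1 array left out the call was kept, with log2 differences of -1.34 to -0.99.

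Bcl2l11, which encodes BIM, a main killer of leukocytes deprived of survival factors, had 5 tested probe sets with log2 differences of -0.26 to 0.19. At its probe set with the highest signal, 1435448_at, the signal was 1934, 1255 and 932 in Gata6-KO and 1789, 1569 and 1247 in Gata6-WT, with the wild type arrays inside the range of the knockout arrays. Bbc3, which encodes PUMA, was at 376, 313 and 360 against 375, 372 and 377, with a 95% interval of -0.44 to 0.24. Bid, which caspase-8 cleaves to link the extrinsic to the intrinsic route, had 674 ± 121 against 851 ± 169 at its brightest probe set, 1417045_at (log2 -0.33 ± 0.18). Its other 2 probe sets, 1447873_x_at and 1448560_at, had log2 differences of 0.13 and 0.46 with overlapping groups. Bad had log2 differences of -0.09 and 0.15 at its 2 probe sets, and Bmf -0.16 at its tested one. Hrk gave opposite signs: 1439854_at was at 110, 122 and 177 in Gata6-KO against 19.6, 99.1 and 20.5 in Gata6-WT (log2 1.49 ± 0.47, limma adjusted p = 0.077), and 1450366_at at 110 ± 49.3 against 135 ± 45.1 (log2 -0.29). The first passed without Gata6-WT replicate 2 (log2 2.05, limma adjusted p = 0.013). Bnip3, a mitophagy receptor of the family, was at 689 ± 144 against 878 ± 136 (log2 -0.35 ± 0.18, limma adjusted p = 0.26).

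The 17 member probe sets at or below the filter hold a few low signals that separate the genotypes. Of the 17, 4 had all Gata6-KO arrays above all Gata6-WT arrays and 0 the reverse, or 23.5%, where 7.74% of all 18015 probe sets at or below the filter were higher and 4.44% lower without overlap. Bik, which encodes a BH3-only protein of the endoplasmic reticulum, was at 41.4, 37.2 and 40.2 in Gata6-KO and at 4.77, 1.65 and 3.48 in Gata6-WT at 1420362_a_at. In the fit without a filter this probe set passed (log2 1.53 ± 0.31, limma adjusted p = 0.022), as did 0.816% of the probe sets at or below the filter. The other 2 Bik probe sets had log2 differences of -0.43 and -0.01 with overlapping groups. Casp9 1426125_a_at was at 63.6, 93.5 and 78.7 against 40.9, 13.3 and 7.54, with a log2 difference of 1.46 ± 0.44 (limma adjusted p = 0.10), while the tested Casp9 probe set 1437537_at had -0.47. Bak1 1425716_s_at and Xiap 1421394_a_at were the remaining 2, at log2 0.93 each (limma adjusted p = 0.35 for both). MAS5 signals this low are noisy.

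Caspases moved in both directions, with Casp8 up and Casp2 down. Casp8, the initiator caspase of the death receptor route, was at 4716, 4483 and 4545 in Gata6-KO and at 2979, 3222 and 3388 in Gata6-WT. Every Gata6-KO array lay above every Gata6-WT array, a 1.43-fold rise (log2 0.52 ± 0.10, limma adjusted p = 0.011). Casp2, an initiator caspase activated by the PIDDosome, fell 1.73-fold, from 1488, 1627 and 1967 in Gata6-WT to 1026, 1177 and 739.9 in Gata6-KO (log2 -0.79 ± 0.18, limma adjusted p = 0.023). The Casp2 call was lost without Gata6-KO replicate 1 or 3 or Gata6-WT replicate 2 or 3, with an adjusted p of up to 0.069 and log2 differences of -0.94 to -0.61; the Casp8 call was kept without any 1 array.

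The caspase of the apoptosome, Casp9, was lower in every Gata6-KO array than in any Gata6-WT array at 1437537_at, at 451, 329 and 474 against 561, 482 and 708, but did not pass (log2 -0.47 ± 0.20, limma adjusted p = 0.17). Apaf1, its activating scaffold, was at 1824 ± 247 against 1782 ± 177 at 1452870_at, with an interval of -0.27 to 0.33. The executioner gene Casp6 had 821 ± 92.1 against 737 ± 62.9 at 1415995_at (log2 0.15). Its other tested probe set, 1458715_at, was at 89.5, 52.3 and 78.8 against 51.0, 38.6 and 41.7. These groups do not overlap, at low signal (log2 0.565, limma adjusted p = 0.34). Casp12, a caspase of the endoplasmic reticulum, was at 72.5, 84.0 and 68.5 against 41.6, 52.1 and 48.9 at 1449297_at, groups that do not overlap at low signal (log2 0.52 ± 0.31, limma adjusted p = 0.33).

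IAP genes also went both ways. Birc2, which encodes cIAP1, a ubiquitin ligase of RIPK1 and the non-canonical NF-kB pathway, fell 1.59-fold, from 1107, 1261 and 1029 in Gata6-WT to 726, 656 and 737 in Gata6-KO (log2 -0.67 ± 0.13, limma adjusted p = 0.012). Its call was lost without Gata6-WT replicate 2 (limma adjusted p = 0.054) and kept without any other array. Birc3, the neighbouring gene for cIAP2, did not pass: at 1421392_a_at it had 2274, 3284 and 2281 in Gata6-KO and 2816, 2388 and 3466 in Gata6-WT, overlapping groups with an interval of -0.55 to 0.25. Whether the 2 genes differ in their change was not tested.

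Birc6, which encodes the giant IAP BRUCE, rose at 2 of its 5 tested probe sets. At 1419562_at it was at 1394, 1304 and 1411 in Gata6-KO and at 1081, 837 and 907 in Gata6-WT (1.45-fold, log2 0.54 ± 0.13, limma adjusted p = 0.029), and at 1427488_a_at at 238, 203 and 272 against 110.1, 93.3 and 157 (1.89-fold, log2 0.92 ± 0.24, limma adjusted p = 0.038). The other 3 had log2 differences of -0.51 to -0.08, and 1 of them, 1442959_at, was lower in every Gata6-KO array (124, 114 and 151 against 185, 154 and 160.02). Both calls were the least stable of the 8: 1419562_at passed without Gata6-WT replicate 1 and 1427488_a_at without Gata6-WT replicate 3, and neither passed with any other array left out, with adjusted p values of up to 0.11 and 0.13.

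Xiap, the IAP that inhibits caspase-3, caspase-7 and caspase-9 directly, had 4968, 4159 and 4889 in Gata6-KO and 5808, 5065 and 4182 in Gata6-WT at 1437533_at, with an interval of -0.41 to 0.22, and its other 3 tested probe sets did not pass either. The mitochondrial IAP antagonists were lower in mean without passing. Diablo, which encodes SMAC, was at 976, 917 and 1045 against 1362, 1096 and 1139.96, with every Gata6-KO array below every Gata6-WT array (log2 -0.28 ± 0.13, limma adjusted p = 0.22). Htra2 had log2 differences of -0.26 and -0.30 at its 2 probe sets, both with overlapping groups.

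In the death receptor route, Cflar showed the largest fall of the 68 probe sets, at 1 of its 5. At 1449317_at the signal was 145, 294 and 266 in Gata6-KO and 755, 657 and 670 in Gata6-WT. Gata6-KO replicate 1 kept 20.9% of the wild type mean and replicates 2 and 3 kept 42.4% and 38.4%, and the difference was 2.94-fold (log2 -1.55 ± 0.24, limma adjusted p = 0.0034). This was the 1 call of the 8 that was kept in all 17 variations of the fit, with log2 differences of -1.73 to -1.20. It was -2.26 between the arrays numbered 1 and -1.20 in the other 4 (interaction adjusted p = 1, unadjusted 0.016). The probe set of Cflar with the highest signal, 1424996_at, was at 2119, 2163 and 1719 against 2724, 2364 and 2299.8, also without overlap, but with a log2 difference of -0.30 ± 0.13 that did not pass (limma adjusted p = 0.19). At 1453482_at Gata6-KO had 103, 96.4 and 106 and Gata6-WT 229.6, 214 and 104 (log2 -0.68 ± 0.30, limma adjusted p = 0.19), with Gata6-WT replicate 3 among the Gata6-KO values. The remaining 2, 1425686_at and 1425687_at, had log2 differences of -0.11 and 0.07, with intervals of -0.43 to 0.22 and -0.33 to 0.47. The transcripts that each of these probe sets reads were not resolved here.

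Fas, the death receptor, was at 710.04, 788 and 706 in Gata6-KO and 697, 757 and 593 in Gata6-WT (log2 0.11, 95% interval -0.21 to 0.43). Its adaptor gene Fadd was at 469 ± 20.5 against 503 ± 37.1 at 1416888_at (interval -0.41 to 0.22). Of the necroptosis genes, Mlkl, whose product permeabilises the plasma membrane, was tightly grouped and higher in each Gata6-KO array, at 735, 727 and 742 against 648, 621 and 614, yet the difference of 1.17-fold did not pass (log2 0.22 ± 0.12, limma adjusted p = 0.30). Ripk3, the kinase that phosphorylates MLKL, was at 803 ± 83.2 against 771 ± 80.7 (interval -0.26 to 0.38).

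Of a further 55 genes of the pathway that are not among the 37, 41 were tested, and 3 were higher and 5 lower in Gata6-KO, or 19.5% beside 13.1% of all genes; their median log2 difference was -0.14. Among caspases and nucleases, Cycs, which encodes cytochrome c, rose from 8937 ± 572 to 14989 ± 687 (log2 0.75 ± 0.10, limma adjusted p = 0.0014) and passed at each of its 3 tested probe sets. The inflammatory caspase gene Casp4 fell from 1258, 1308 and 962 to 339, 753 and 487 (log2 -1.20 ± 0.26, limma adjusted p = 0.017). Of the Naip genes, NLR sensors that also carry IAP-type domains, Naip5 fell by 0.90 and Naip2 by 0.46 on the log2 scale (limma adjusted p = 0.0011 and 0.015). Bclaf1 fell at 1 of its 4 tested probe sets (log2 -0.66), with the other 3 between 0.09 and 0.23. Without the arrays numbered 1, Casp4 (log2 -0.87, limma adjusted p = 0.096) and Naip2 (0.089) no longer passed, while Cycs, Naip5 and Bclaf1 did (0.016, 0.016 and 0.041).

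In the list of p53 and stress inputs Foxo3, a transcription factor that can drive Bcl2l11, and Aen, a p53-induced nuclease gene, rose (log2 0.87 and 0.61, limma adjusted p = 0.017 and 0.043). Each was called at part of its probe sets: Foxo3 at 1 of 2, the other at log2 0.49 (limma adjusted p = 0.13), and Aen at 2 of 4, the others at 0.10 and 0.62 (limma adjusted p = 0.86 and 0.37). In the same list Pdcd4, a translation inhibitor, fell from 6420 ± 261 to 3138 ± 799.8 (log2 -1.06 ± 0.18, limma adjusted p = 0.0051). The remaining 7 of its 10 tested genes did not pass. Of these, Cdkn1a (log2 0.74), Trp53inp1 (0.59), Zmat3 (0.51) and Mdm2 (0.35) were above 0 and Dapk1 (-0.575), Ddit3 (-0.36) and Trib3 (-0.21) below it. Without the arrays numbered 1, Foxo3 (limma adjusted p = 0.060) and Aen (0.13) no longer passed, Pdcd4 still did (0.018), and Cdkn1a passed (0.032).

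None of the 12 tested death ligands, receptors and adaptors passed, and of these 8 did not overlap between the groups, 66.7% beside 34.4% of all genes. By limma 5 of the 12 (41.7%) had an unadjusted p under 0.05, all with a negative difference. Among all genes 27.8% did, 15.9% with a negative one. The 5 were Tnfsf10, Cradd, Cyld, Tnfaip3 and Daxx, and the other genes below 0 were Traf2 (log2 -0.29) and Faf1 (-0.16). Above 0 were the receptor genes Tnfrsf25 (0.44), Tnfrsf1a (0.19), Tnfrsf1b (0.12) and Tnfrsf21 (0.085) and the adaptor gene Tradd (0.29). The lowest adjusted p was that of the death ligand gene Tnfsf10, at 160, 134 and 88.1 against 212, 251 and 237 (log2 -0.83, limma adjusted p = 0.057).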

How the data were processed

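Each array was measured once with biotin-labelled RNA. MAS5 and affy are named, without versions, per the submitters' processing notes. The deposited values are linear intensities, 1 per probe set. Their mean without the highest and lowest 2% was 500.0 on each array, so the authors' intensity scale had been set to a common level. MAS5 subtracts a mismatch-based signal, which makes low signals noisy. Detection calls were not used here. Gene symbols came from the array annotation, in which 34958 probe sets had 1 symbol, 932 several and 9211 none here; all 37 member symbols are in the GRCm38.p6 gene table.

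Signals were taken as log2(signal + 16). The 64 control probe sets were left out, as were probe sets at or below the 40th percentile of the mean. The remaining 27022 were fitted with limma 3.58.1 in R 4.3.3 (lmFit, then eBayes with a trend). Tests were two-sided, and p-values were adjusted over all of them by Benjamini-Hochberg and a threshold of 0.05. The steps were tested on simulated data. P-values measure the spread between these pools, and the number of arrays limits the precision.

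The members, lists, tests and the rule for naming genes were chosen with earlier results of these data known. By that rule every member is accounted for, members with a probe set past the threshold are given in full, and of the other pathway list up to 6 genes past the threshold in each direction were to be named. Same-numbered arrays deviated together at r = 0.13, 0.07 and 0.07, and the numbers were not taken as pairs because not every r was over 0.1. The variations of the fit were pseudocounts of 1 and 64, no filter or the 60th percentile, quantile normalization, median scaling, no trend, the replicate number as a block, array weights, a term for replicate 1, replicates 2 and 3 alone, each array left out, and probe sets averaged per gene. The plots used Python 3.11.15 and matplotlib 3.10.9.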

Additional observations from a re-analysis of the deposited data

How the results depend on the processing

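Counts of probe sets and genes past the threshold moved with the spread estimate and the number of arrays. With no trend in the spread, 0 member probe sets were higher and 2 lower (4 and 4 as reported), 0 genes higher and 1 lower (2 and 3 as reported), 1 other pathway gene higher and 3 lower, and 1 Gata6 probe set lower, while 5.40% of all probe sets passed instead of 10.8%. In replicates 2 and 3 alone, 1 member probe set was higher and 1 lower, 0 genes in either direction, and 3 other pathway genes lower. Median scaling left 1 member gene higher, as did averaging the probe sets per gene, which also turned the median log2 difference of the member genes from -0.11 to 0.039. With 1 array left out, 2 to 3 member probe sets were higher and 2 to 4 lower, 1 to 2 genes higher and 1 to 3 lower, and 1 to 3 other pathway genes higher and 3 to 6 lower; fewer arrays enter these fits, and beyond that the cause was not tested. The probe sets Mcl1 1416881_at and Pmaip1 1418203_at each kept their call in 16 of 17 variations, Casp8 in 15 and Birc2 in 14. Casp2 kept its call in 11, Birc6 1419562_at in 9 and Birc6 1427488_a_at in 8 of the 17 variations. No called value changed sign in any of them. With the replicate number as a block 5 member probe sets were higher and 4 lower, Bcl2l1 1420888_at being the added 1 (log2 0.50, limma adjusted p = 0.036), and 11.4% of all probe sets passed. In their deviations from the group means, all 6 arrays correlated best with the array of their own number, a hint from the data and not from the design. These matches come from 1 set of correlations and are not independent of each other. The arrays numbered 1 also shared their Xist and Eif2s3y levels. The smallest change that passed among the members was 1.43-fold, so smaller changes may have been missed.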
